A study of Mus musculus with 2 samples.

Results

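The circadian clock genes were described in inflammation-experienced regulatory T cells, the Foxp3-defined CD4 T cells that restrain immune responses. The 10 genes Per1, Per2, Per3, Cry1, Cry2, Clock, Arntl, Dbp, Nr1d1 and Nr1d2 were matched by gene name among 55536 annotated genes, and all 10 were found in both libraries. The cells were primary cells of a male adult mouse of 6 months of the strain Foxp3CreERT2 x Rosa26YFP, in which a Foxp3-driven inducible Cre recombinase is combined with a YFP reporter, and the labels trace them to a bone marrow hematopoietic cell. There was 1 group with 1 biological replicate, from which polyadenylated RNA was sequenced as 2 technical libraries. No untreated cells, no other animal and no time of day were analysed here, so each value is a level in these cells and shows neither a rhythm nor an effect of inflammation.

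The mammalian clock is a feedback loop of transcription. CLOCK and ARNTL (also called BMAL1) form a dimer that activates genes through E-box motifs, among them the Per and Cry genes, whose proteins return to the nucleus and repress the dimer. In a further loop the nuclear receptors NR1D1 and NR1D2 (REV-ERB alpha and beta) repress Arntl, which the ROR receptors activate at the same RORE motifs, and DBP activates genes through D-box motifs. In mouse T cells, Nr1d1 and the D-box repressor Nfil3 are known for their part in the control of the Th17 lineage.

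Promoter windows of Per1, Cry1 and Per3 are shown first, because the loop closes on Per and Cry genes and these windows hold the E-box and D-box matches found. A second Per1 window is shown because Per1 has several annotated starts, among which the libraries divided its reads differently. The windows are RefSeq sequence of GRCm38.p6 (mm10), from 250 bases before to 50 bases after a start, 5′ to 3′ on the gene's strand. Capitals mark a match to a clock motif on either strand: the E-box CACGTG, the E′-box CACGTT or the D-box TTATGCAA or TTATGTAA.
Per1, window at the start of Per1-201, chr11:69098699-69098998, plus strand: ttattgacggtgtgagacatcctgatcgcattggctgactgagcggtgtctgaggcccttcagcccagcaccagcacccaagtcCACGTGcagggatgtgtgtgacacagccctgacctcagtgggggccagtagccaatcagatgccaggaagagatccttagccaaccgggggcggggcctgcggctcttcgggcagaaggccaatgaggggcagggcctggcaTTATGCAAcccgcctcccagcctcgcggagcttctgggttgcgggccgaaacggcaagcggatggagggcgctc
Per1, window at the start of Per1-204, chr11:69099902-69100201, plus strand: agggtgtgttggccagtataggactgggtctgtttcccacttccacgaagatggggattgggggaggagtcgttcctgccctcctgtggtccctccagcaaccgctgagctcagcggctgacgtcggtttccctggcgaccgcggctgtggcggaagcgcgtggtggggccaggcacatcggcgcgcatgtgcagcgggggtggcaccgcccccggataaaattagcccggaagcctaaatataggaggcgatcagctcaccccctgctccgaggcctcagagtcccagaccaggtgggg
Cry1, chr10:85185005-85185304, minus strand: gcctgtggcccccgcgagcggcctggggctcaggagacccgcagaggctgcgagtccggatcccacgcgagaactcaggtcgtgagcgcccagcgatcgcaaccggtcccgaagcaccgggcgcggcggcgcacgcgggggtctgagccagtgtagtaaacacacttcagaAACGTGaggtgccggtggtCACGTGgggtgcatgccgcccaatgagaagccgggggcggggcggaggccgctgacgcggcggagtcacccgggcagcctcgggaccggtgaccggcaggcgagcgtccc
Per3, chr4:151044616-151044915, minus strand: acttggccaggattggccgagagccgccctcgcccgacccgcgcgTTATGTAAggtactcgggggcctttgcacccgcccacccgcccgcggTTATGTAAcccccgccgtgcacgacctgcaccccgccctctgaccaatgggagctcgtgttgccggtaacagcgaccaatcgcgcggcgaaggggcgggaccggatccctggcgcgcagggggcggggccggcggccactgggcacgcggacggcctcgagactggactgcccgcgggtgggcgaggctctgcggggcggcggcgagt

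The Per1-201 window held an E-box whose first base lies 166 bases before the start and a D-box at 24 bases before it, and the Per1-204 window held no match. The Cry1 window held an E-box at 60 bases and an E′-box, read here as its reverse complement, at 79 bases before the start. The Per3 window held the D-box TTATGTAA at 205 and again at 158 bases before the start. Of the windows not printed, those of Cry2 and Nr1d1 held an E′-box at 166 and 28 bases before the start. One of the Arntl windows held the RORE core TAGGTCA 30 bases after its start, the core being searched as TAGGTCA or TGGGTCA. No match was found in the windows of Clock, Dbp and Nr1d2, and no matches overlapped. In all, 13 windows were matched to 9 of the genes, and Per2 was not searched. In total 6 windows of 6 genes held a match to any of these motifs. Among 32851 windows of the same length, 7.15% held the E-box, 4.68% the E′-box, 1.66% the D-box and 6.45% the RORE core. The share that held any of them was not counted, so the total above has no like share beside it. These matches describe letters and show no binding.

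By mean level, Arntl and Clock of the positive limb were the most abundant of the 10, though Clock was not apart from Nr1d2. With protein-coding transcripts alone Clock did not keep this place, as described below. Levels are in TPM, a measure per transcript length, given as the mean ± SD of the technical libraries (n = 2). The 95% intervals cover the counting of a gene's reads, as exact Poisson intervals of the estimated counts scaled to TPM. They treat all counts of a gene alike and leave out how these were divided among transcripts of unlike length. For Per2 and Per1, where few counts of a short transcript held much of the TPM, they are therefore too narrow. Arntl (ENSMUSG00000055116.8, chromosome 7, 113207465 to 113314126, plus strand) stood at 15.4 TPM in replicate 1 and at 21.02 TPM in replicate 2, or 18.2 ± 3.96 TPM. In such bulk RNA, fewer cells that express a gene and less of its RNA per cell cannot be told apart. Its partner Clock (ENSMUSG00000029238.11, chromosome 5, 76209868 to 76304792, minus strand) stood at 14.0 and 13.7 TPM, or 13.9 ± 0.19 TPM. The intervals of Arntl and Clock overlapped in replicate 1 and were apart in replicate 2, from 19.5 to 22.7 TPM for Arntl and from 12.8 to 14.8 TPM for Clock.

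Of the nuclear receptors of the second loop, Nr1d2 came next, while Nr1d1 lay near Dbp and Per3. Nr1d2 (ENSMUSG00000021775.11, chromosome 14, 18204054 to 18239127, minus strand) stood at 11.2 and 11.9 TPM. Nr1d1 (ENSMUSG00000020889.11, chromosome 11, 98767932 to 98775333, minus strand) stood at 6.24 and 5.36 TPM, lower than Nr1d2 in both libraries of the larger gene table, the source of all TPM values here. The log2 ratio of Nr1d1 to Nr1d2 was -0.84 and -1.15. In a smaller deposited gene table the whole-number counts were 120 and 83 for Nr1d1 and 72 and 89 for Nr1d2. They put Nr1d1 below Nr1d2 in replicate 2 only. These counts are not per length, and the leading transcript is shorter for Nr1d1 (2721 nt) than for Nr1d2 (4663 nt). The D-box activator Dbp (ENSMUSG00000059824.12, chromosome 7, 45705088 to 45710203, plus strand) stood at 4.85 and 7.01 TPM, on 68.8 and 84.0 estimated counts.

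The Per and Cry repressors of the negative limb had means from 1.04 to 5.80 TPM, and the highest of them were not apart from Dbp and Nr1d1. Per3 (ENSMUSG00000028957.12, chromosome 4, 151003652 to 151044665, minus strand) stood at 5.63 and 5.96 TPM. Cry2 (ENSMUSG00000068742.11, chromosome 2, 92403646 to 92434043, minus strand) stood at 5.15 and 5.67 TPM. Per1 (ENSMUSG00000020893.17, chromosome 11, 69095217 to 69109960, plus strand), a Per gene that also responds acutely to stimuli, stood at 3.88 and 4.32 TPM. Cry1 (ENSMUSG00000020038.10, chromosome 10, 85131700 to 85185064, minus strand) stood at 3.92 and 3.30 TPM, below Cry2 in both libraries. Their intervals overlapped in replicate 1, reaching up to 4.65 TPM for Cry1 and down to 4.46 TPM for Cry2. In the smaller table Cry1 had 74 and 55 counts and Cry2 had 64 and 59, so replicate 1 held the opposite order by counts. These counts are again not per length, and the leading transcript is shorter for Cry1 (3026 nt) than for Cry2 (3976 nt). Per2 (ENSMUSG00000055866.9, chromosome 1, 91415982 to 91459324, minus strand) was the lowest at 0.86 and 1.22 TPM, on 56 and 31 estimated counts. It lay below every other clock gene in both libraries.

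**Figure D1:**
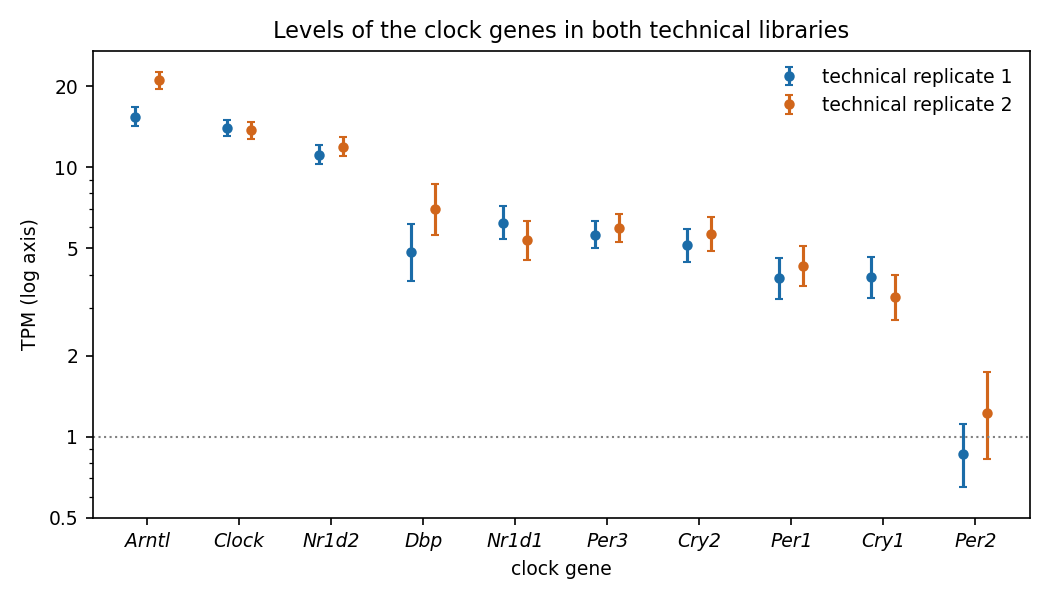
TPM of each clock gene (log axis) in technical replicates 1 and 2. Points are the deposited values, bars the 95% Poisson intervals of the counts scaled to TPM, and the dotted line marks 1 TPM; Arntl, Clock and Nr1d2 lie above 11 TPM in both libraries, and Per2 lies around the line.

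With detection set at 1 TPM or more in both libraries, 9 of the 10 genes were detected, and Per2 reached it in replicate 2 only. Of all annotated genes 24.3% were detected (13511 of 55536), and of protein-coding genes 46.7% (10288 of 22028). The median of the clock genes was 5.80 TPM (5.39 and 5.82 in the libraries), beside 13.4 TPM over all detected genes and 18.3 TPM over detected protein-coding genes. Arntl exceeded 57.5% of the detected genes, Clock 50.7% and Nr1d2 46.2%. The other 6 detected clock genes exceeded between 21.3% (Cry1) and 31.4% (Dbp). The highest mean was 17.5 times the lowest.

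The order of the means was Arntl, Clock, Nr1d2, Dbp, Nr1d1, Per3, Cry2, Per1, Cry1 and Per2. Neighbours were called apart where the intervals of both libraries of the one lay above all those of the next. This held for only 2 of the 9 neighbouring pairs, Nr1d2 above Dbp and Cry1 above Per2, and for 29 of all 45 pairs. The genes from Dbp to Cry1 therefore formed a run with no separable neighbours. The credibility bounds that the authors deposited, unlike the Poisson intervals, did not keep Per2 apart from Cry1 and Per1, nor Per3 from Cry1. By them Cry1 reached up to 6.38 and 6.53 TPM, and Per3 down to 4.48 and 4.69 TPM. In replicate 2 Per2 reached up to 3.03 TPM by these bounds, above the lower bounds of Cry1 (2.88 TPM) and Per1 (2.82 TPM). Within families, the log2 ratio was 2.17 and 1.82 for Per1 to Per2, 2.71 and 2.29 for Per3 to Per2, -0.39 and -0.78 for Cry1 to Cry2, and -0.14 and -0.61 for Clock to Arntl. Each ratio had the same sign in both libraries.

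The smaller gene table, with whole-number counts on another annotation, placed some of these genes elsewhere. Taken as a share of the counts of matched genes, the log2 ratio of the smaller to the larger table had a median of 0.71 over 10937 genes. Per3 stood at -1.22, with 8.67% of genes lower, and Nr1d2 at -0.94, with 10.8% lower. Per3 had only 33 and 31 counts there, Per2 22 and 14, and Per1 74 and 96. Relative to the other clock genes, Per3 and Nr1d2 thus had smaller shares in that table, and the cause was not tested. The other 8 genes ran from -0.05 for Clock to 1.24 for Per1.

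Much of the TPM of Clock and Per3 was assigned to transcripts that are not annotated as protein coding. For Clock, retained-intron transcripts held 61.2% and 62.3% of the gene's TPM, led by Clock-206 (2473 nt, 39.5% and 39.6%) and Clock-203 (2287 nt, 21.8% and 22.7%). The protein-coding Clock-205, a 9744 nt transcript, held 31.1% in each library, although it took 525.0 and 455.0 of the 818 and 726 estimated counts. By counts, protein-coding transcripts of Clock held 67.0% and 68.4%. The measure therefore decides which class leads for Clock.

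For Per3, the processed transcript Per3-204 (3663 nt, 151003786 to 151016145 on chromosome 4) held 66.7% and 63.2% of the TPM and most of the counts, 168.7 and 149.5. It covers the downstream end of the gene and begins within it, away from the promoter shown above. The protein-coding Per3-201 held 20.2% and 23.1% of the TPM, on 84.3 and 89.8 counts. Per3 also lies wholly within the span of Camta1 on the same strand, a transcription factor gene at 36.2 and 46.0 TPM.

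With protein-coding transcripts alone, an alternative chosen after seeing the data, Clock stood at 4.71 ± 0.11 TPM and Per3 at 1.25 ± 0.16 TPM. Clock then moved from the second to the fifth place and Per3 from the sixth to the ninth. Arntl (14.2 ± 3.32 TPM) and Nr1d2 (10.8 ± 1.33 TPM) became the leading pair, and Per2 (0.62 ± 0.23 TPM) remained the lowest. The log2 ratio of Clock to Arntl became -1.57.

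**Figure D2:**
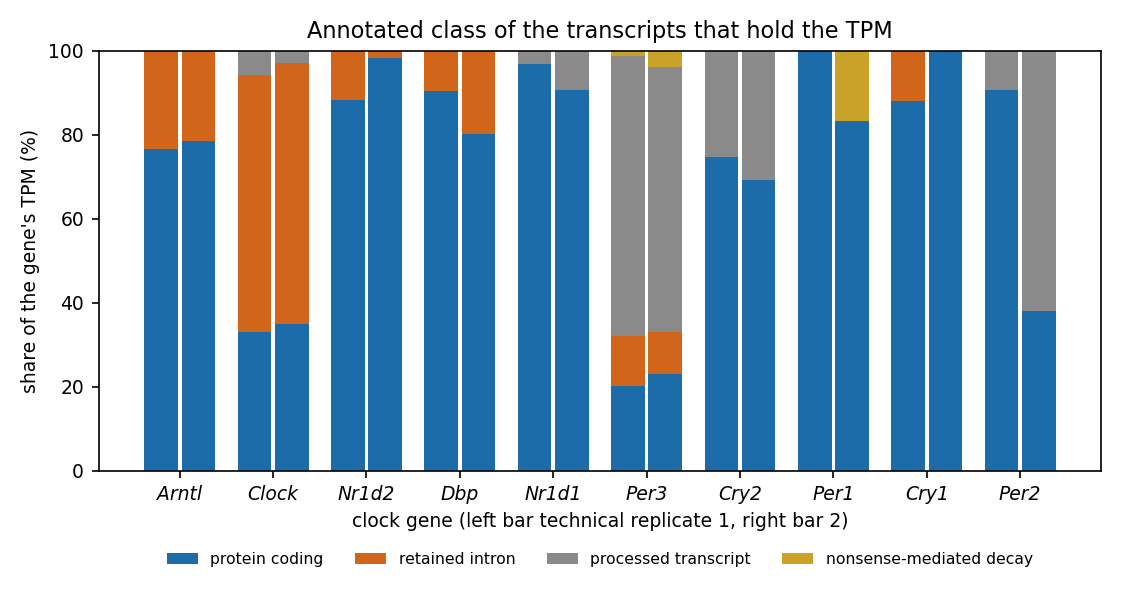
Share of each clock gene's TPM (percent) by the annotated class of its transcripts, with technical replicate 1 at left and 2 at right in each pair of bars. Protein-coding transcripts hold less than 35% of the Clock and Per3 TPM in both libraries, and they hold 90.7% and 38.0% of the Per2 TPM.

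In replicate 2, most of the TPM of Per2 rested on very few reads of a short transcript. Per2-202, a processed transcript of 231 nt, took 0.18 and 1.5 estimated counts, yet held 9.16% and 61.8% of the Per2 TPM. The 5833 nt protein-coding Per2-201 took 55.8 and 29.5 counts, or 0.78 and 0.46 TPM. The gene's TPM was thus higher in replicate 2 while its count was lower. The credibility bounds that the authors deposited ran from 0.587 to 2.41 TPM in replicate 1 and from 0.402 to 3.03 TPM in replicate 2. The sequence of Per2-202 is shown because it held most of the level in replicate 2. Capitals mark the 23 bases at its end that are absent from Per2-201, and the other 208 bases are shared with it.
Per2-202, chr1:91447722-91449865, minus strand, 3 exons joined: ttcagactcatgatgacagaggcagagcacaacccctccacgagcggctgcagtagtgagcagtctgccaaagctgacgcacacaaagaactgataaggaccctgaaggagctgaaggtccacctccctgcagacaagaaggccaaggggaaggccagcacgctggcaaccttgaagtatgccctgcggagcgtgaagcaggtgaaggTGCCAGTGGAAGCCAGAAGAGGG

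For Per1 the estimated counts fell on different starts in the libraries. Per1-201, which begins in the window with the E-box and D-box, and Per1-202, which begins upstream of it, together took 112.6 of 129 counts in replicate 1 (87.3%) and 37.8 of 143 in replicate 2 (26.4%). Per1-203 to Per1-206, which begin downstream, took 16.4 (12.7%) and 105.2 (73.6%). Most of the latter did not belong to the second window shown, since Per1-203 begins at 69100522 and Per1-205, with 23.3 counts in replicate 2, at 69100509, both beyond its end. Per1-201 led by counts in replicate 1, with 102.8, and Per1-203 in replicate 2, with 75.5. Both are protein-coding transcripts of similar length, 4671 and 4537 nt. For the gene as a whole the log2 count ratio of replicate 2 over 1 was 0.32, with an adjusted p of 0.201 by the exact binomial test described below. A further 496 nt transcript, Per1-204, took 9.69 and 6.45 counts but 44.9% and 30.4% of the TPM. The division is an estimate by the authors' quantifier, and its own error was not tested.

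The other genes were mostly assigned to 1 protein-coding transcript. Nr1d1-201 held 96.8% and 90.6% of the TPM, Nr1d2-201 88.3% and 98.2%, Cry1-201 87.9% and 100%, and Dbp-204 90.3% and 72.4%. Cry2-201 held 58.0% and 54.0%, beside the processed transcript Cry2-203 with 25.3% and 30.7% and the protein-coding Cry2-202 with 16.7% and 15.3%. Arntl-201 held 50.7% and 54.2%. The rest of Arntl was divided differently in the libraries, with Arntl-203 at 17.7% and 0% and Arntl-204 at 8.18% and 19.7%, and the retained-intron Arntl-202 at 20.7% and 15.0%. Dbp-202, a retained-intron transcript, held 2.32% and 19.9%. Of the 44 annotated transcripts of the clock genes, 25 held 10% or more in either library, 10 had counts in 1 library only and 6 had none. The leading transcript by TPM was the same in both libraries for 8 of the 10 genes, all but Per1 and Per2.

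Other genes share the position of several clock genes, and the strand setting of the quantification was not given in the sources used here. Dbp shares 737 bases with Sphk2 on the opposite strand (12.9 and 12.5 TPM), and Nr1d1 shares 1075 bases with Thra (3.85 and 4.25 TPM), also opposite. The processed pseudogene Ube2n-ps1, at 162.0 and 162.8 TPM, lies within the span of Clock on the same strand. Gm43658 within Clock, D930015M05Rik opposite Cry2 and Gm45355 opposite Arntl stayed below 1 TPM. How far these genes share reads with the clock genes was not tested.

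The technical libraries were then compared gene by gene. A two-sided exact binomial test on rounded counts, scaled by effective library size with Benjamini-Hochberg adjustment over 17334 genes, asked whether a gene's counts differed beyond read sampling. It compares these libraries and no conditions. Of the clock genes 1 of 10 passed at an adjusted p of 0.05, beside 19.2% of all genes tested (3328), so the clock genes held no more calls than that background share would give. The gene was Arntl, with 569 and 665 counts, a log2 ratio of 0.40 for replicate 2 over 1 and an adjusted p of 4.64e-05 by the exact binomial test. Its whole-number counts in the smaller gene table were 252 and 326, with a log2 ratio of 0.50 and an adjusted p of 0.00226 by the same exact test, in a table where 6.62% of genes passed. A further alternative, by edgeR, took its dispersion from the same 2 libraries that it compared. Their difference over all genes thus entered the spread, which by itself makes calls few. Arntl is 1 of the 17334 genes behind that spread, so its own difference weighs little in it. This common dispersion, fitted over all genes, allows for more than read sampling. With it Arntl had an adjusted p of 0.648 by edgeR. None of the 10 genes passed, beside 1.80% of all genes. The difference of Arntl thus exceeded read sampling but was not told apart from the typical spread between these libraries.

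The remaining 9 genes did not pass. Their log2 count ratios ran from -0.67 for Per2 to 0.46 for Dbp, and the smallest adjusted p among them was 0.0591 for Nr1d2 by the exact binomial test (log2 ratio 0.21). Clock, with the most counts, was the closest to 0 at 0.00. By TPM, 7 of the 10 genes were higher in replicate 2 and 3 were lower, namely Clock, Nr1d1 and Cry1.

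**Figure D3:**
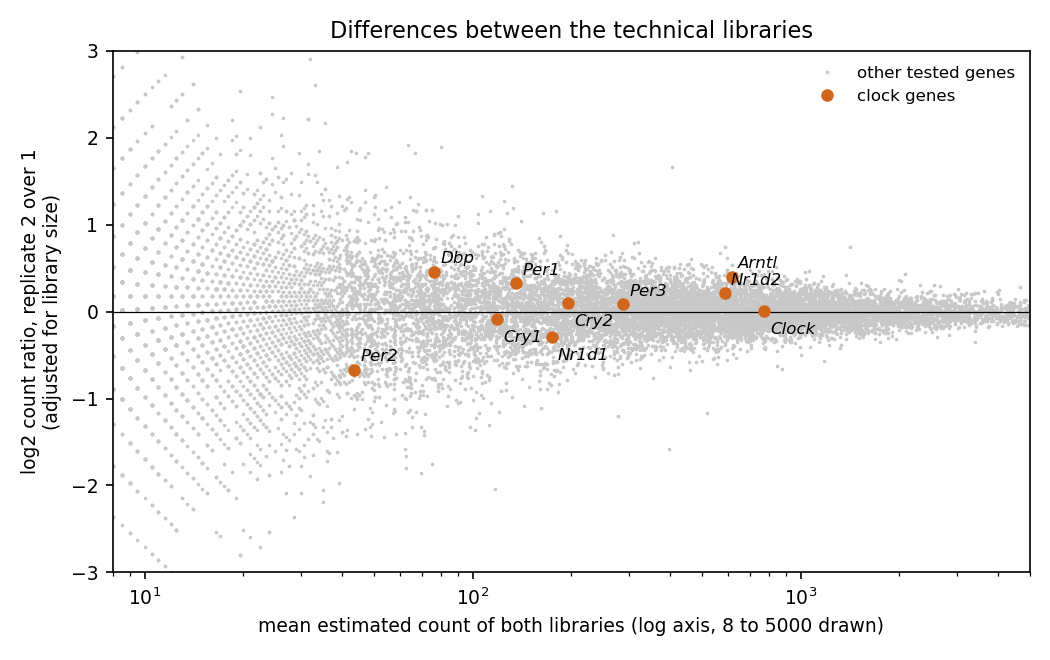
Log2 ratio of counts in technical replicate 2 over 1, adjusted for library size, against the mean estimated count (log axis) of each tested gene. Orange points are the clock genes and grey points the other genes; Arntl, at 0.40 and a mean of 617 counts, is the clock gene that passed the exact binomial test.

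Around the 10 genes, the paralogs of the clock transcription factors were unevenly expressed. Npas2, which can replace Clock, stood at 0.15 and 0.20 TPM, on 8 and 9 counts. Arntl2, a paralog of Arntl, stood at 5.92 and 8.61 TPM. The ROR receptors that oppose Nr1d1 and Nr1d2 were led by Rora at 28.6 and 30.0 TPM, above each clock gene. Rorb stood at 0.42 and 0.46 TPM. Npas2, Arntl2, Rora and Rorb did not pass the test between the libraries.

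Among the regulators that share the E-box and D-box sites, the E-box repressor Bhlhe40 was the highest at 73.6 and 67.8 TPM, while its paralog Bhlhe41 stood at 0.26 and 0.25 TPM. Of the D-box factors, Tef stood at 6.57 and 8.76 TPM, Hlf at 1.12 and 1.67 TPM and the repressor Nfil3 at 2.85 and 1.98 TPM. Ciart, which encodes a repressor of CLOCK and ARNTL, stood at 4.88 and 8.16 TPM. Ciart (adjusted p = 0.00964, log2 ratio 0.69) and Tef (adjusted p = 0.0330, log2 ratio 0.31) were higher in replicate 2 by the exact binomial test. The median of these 6 genes was 4.47 TPM. Calls in this list and those that follow stand beside 9.42% of all tested genes called higher and 9.78% called lower in replicate 2.

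The enzymes that modify clock proteins stood higher. The 13 kinases and phosphatases had a median of 44.6 TPM with 12 detected, led by the phosphatase subunits Ppp1ca (582 ± 28.4 TPM) and Ppp1cb (122 ± 6.10 TPM) and by Csnk2b (183 ± 0.01 TPM). Of the 12 tested, 1 was called higher and 2 lower in replicate 2, and Prkaa2 had no estimated counts in the larger table. The 9 ubiquitin ligases and deubiquitinases had a median of 23.7 TPM with 8 detected, led by Ddb1 (76.9 ± 3.78 TPM), Huwe1 (50.5 ± 0.62 TPM) and Usp7 (37.5 ± 2.79 TPM). Fbxl21, at 1.10 and 0.89 TPM, missed the threshold.

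All 14 co-regulators were detected, with a median of 33.4 TPM, led by Nono (242 ± 19.1 TPM), Ncor1 (144 ± 0.18 TPM), a corepressor used by the REV-ERB receptors, and Kdm5a (60.7 ± 0.85 TPM). None of them was called higher and 2 were called lower in replicate 2. Of 14 output genes 12 were detected (median 10.2 TPM), led by the cold-inducible Rbm3 (442 ± 7.39 TPM), the glucocorticoid-responsive Tsc22d3 (222 ± 19.0 TPM) and Cirbp (155 ± 4.50 TPM). Pdk4 and Bhlhe41 missed the threshold, with Pdk4 at 0 and 0.08 TPM, and 2 genes were called in each direction. Of 10 immediate early genes, which like Per1 answer acute stimuli, 9 were detected (median 22.5 TPM), led by Egr2 (48.8 ± 3.95 TPM), Ier2 (34.9 ± 1.08 TPM) and Nr4a1 (32.5 ± 2.99 TPM). Fosb missed the threshold at 0.73 and 0.89 TPM, and 3 of the 10 were called higher and 1 lower in replicate 2. Over all 8 lists, with each gene counted once, 58 of 65 genes were detected, their median was 23.7 TPM, and of 63 tested genes 7 were called higher and 8 lower.

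**Figure D4:**
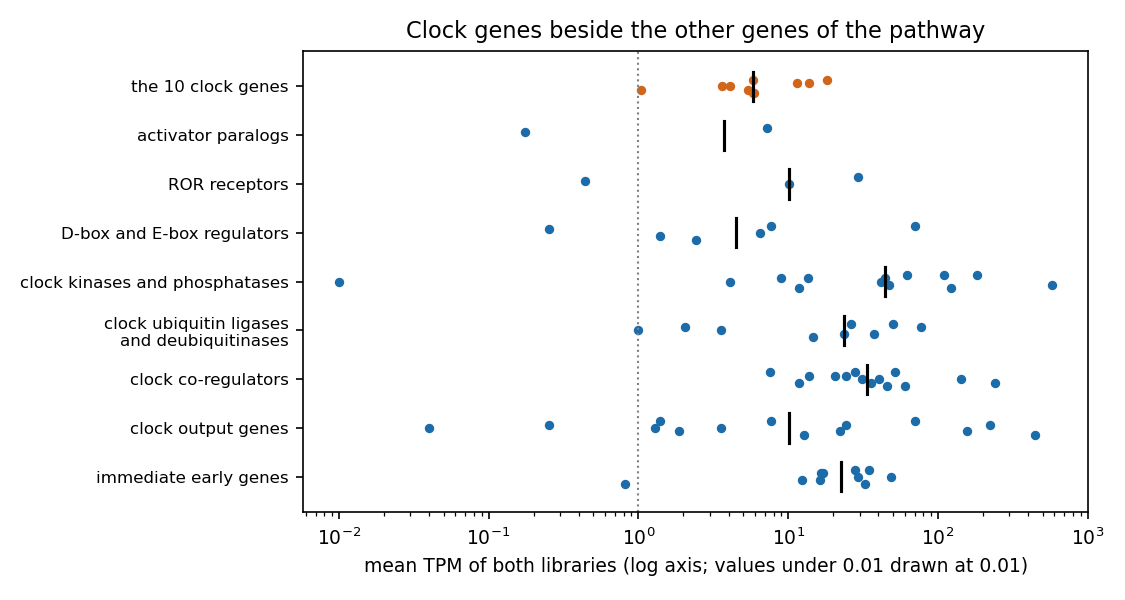
Mean TPM (log axis) of the clock genes (orange) and of the genes of 8 related lists (blue), with the median of each list as a black bar and 1 TPM as a dotted line. The clock genes lie between 1.04 and 18.2 TPM; Prkaa2, at 0 TPM, is drawn at 0.01.

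The label of the cells was checked against markers. All 6 T cell and all 6 regulatory T cell markers were detected, with medians of 954 and 300.3 TPM. Foxp3, the defining gene, stood at 22.1 and 17.9 TPM. Of 27 markers of other cell types 5 were detected and 4 had no estimated counts in the larger table. The 5 B cell markers summed to 39.8 and 32.2 TPM, nearly all of it Cd79b. The CD8 and NK markers summed to 14.7 TPM in each library, the erythroid and platelet markers to 10.3 and 11.9 TPM, the myeloid markers to 1.52 and 1.40 TPM and the stromal, endothelial and epithelial markers to 1.23 and 0.28 TPM. The part of such cells in the clock gene levels was not tested.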

How the data were processed

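Per the file headers and the text deposited with each library, the authors made from mm10 alignments a larger gene table with estimated counts, TPM and posterior mean TPM (GENCODE M21), a transcript table with the percent of a gene's TPM per transcript, and a smaller gene table of whole-number counts (GENCODE M4). The authors also deposited credibility bounds of TPM, treated here as signal values. The sources used here do not name the aligner, the quantifier or the strand setting. Gene totals were 15386113 and 13604480 estimated counts in technical replicates 1 and 2, and 3581589 and 3271045 counts in the smaller table. Entries without a gene name (0.174% and 0.158% of estimated counts) were left out of library sizes and tests. Reads divided by estimation among paralogs, pseudogenes and overlapping genes make such levels uncertain.

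Estimated counts were rounded for the exact binomial test (SciPy 1.17.1). It used genes with at least 10 counts summed and TMM library sizes (edgeR 4.0.16, R 4.3.3). On simulated Poisson counts it made 4 false calls among 17427 genes and recovered 71% of 2-fold and 88% of 4-fold changes. Such counts hold read sampling only, as the test assumes, so they cannot show how the test behaves with more spread. DESeq2 1.42.0 size factors, total counts, no filter, posterior mean counts, the smaller table and an edgeR common dispersion were alternatives. The edgeR dispersion was estimated from the same 2 libraries that were compared. The exact binomial p-values set the difference between the libraries against read sampling alone. As the libraries are technical, they do not measure the spread between animals. A count of 0 allows 3 counts, or 0.195 and 0.221 CPM, for counting error only, since reads are not independent molecules. The named genes were the 10 clock genes, the 3 highest of each related list, members below 1 TPM, direct paralogs and overlapping genes; Cd79b was named after its values were seen, and some genes of the lists are not reported here. The members, lists and tests were chosen with earlier results of these data known. Motifs were searched on both strands.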

Additional observations from a re-analysis of the deposited data

How the results depend on the processing

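No paired analysis was possible because the labels give 1 group. Replacing TPM by the posterior mean TPM moved the log2 ratio of Per1 to Per2 to 1.43, of Per3 to Per2 to 1.87 and of Cry1 to Cry2 to -0.21. A pseudocount of 1 TPM gave 1.33 for Per1 to Per2 and 1.74 for Per3 to Per2. Of the alternatives chosen after seeing the data, protein-coding transcripts alone gave 2.64 for Per1 to Per2, 1.06 for Per3 to Per2, -0.21 for Cry1 to Cry2 and -1.57 for Clock to Arntl, and transcripts of 1000 nt or more gave 3.27 for Per3 to Per2. No ratio changed sign under these alternatives. The count of genes that differed between the libraries was 729 in the smaller table and 312 with the edgeR common dispersion. In that edgeR fit 0 clock genes were called, none of them had an unadjusted p under 0.05, and Arntl had an unadjusted p of 0.0834 (edgeR), while every other alternative run called Arntl alone. The edgeR dispersion came from the libraries compared, which makes its calls few. By it Arntl was not told apart from their typical spread over all genes. Clock genes detected numbered 10 at 0.5 TPM, 6 at 5 TPM, 10 with the posterior mean TPM (Per2 at 1.32 and 1.55 TPM), 10 without replicate 1 and 9 without replicate 2. Neighbours apart in the order numbered 2 or 3 under each alternative, by Poisson intervals. The deposited credibility bounds, as given above, did not keep Per2 apart from Per1 and Cry1. Depth limits Per2 most, at 56 and 31 counts.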
